A study of Mus musculus with 41 samples.

Results

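Srsf1, Srsf2, Srsf3, Srsf4, Srsf5, Srsf6, Srsf7, Srsf10, Srsf11 and Tra2b encode serine/arginine-rich (SR) splicing factors that are known for unproductive splice forms, and their transcripts and ribosome footprints were followed across mouse mutants of ribosome rescue and nonsense-mediated decay (NMD). The 10 genes were taken as a list of symbols, with no measured value in the rule, though with earlier results of these data known, from 55385 genes in the RNA tables and 22438 in the footprint tables. They carried 89 of the 142552 annotated transcripts, of which 29 are annotated as protein_coding, 17 as nonsense_mediated_decay, 29 as retained_intron and 14 as processed_transcript. Srsf10 has no transcript annotated as nonsense_mediated_decay or retained_intron, so the comparisons of those types cover the other 9 genes. On mm10 the genes lie at chr11:88047373-88053755 (Srsf1), chr11:116849901-116853094 (Srsf2), chr17:29032628-29043373 (Srsf3), chr4:131873617-131901706 (Srsf4), chr12:80945504-80950507 (Srsf5), chr2:162931528-162937121 (Srsf6), chr17:80200080-80207307 (Srsf7), chr4:135855747-135869908 (Srsf10), chr3:158010473-158036639 (Srsf11) and chr16:22244549-22266005 (Tra2b).

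SR proteins bind exons through RNA recognition motifs and recruit the splicing machinery through their arginine and serine repeats, and many of them limit their own amount by splicing a poison exon, an exon with an in-frame stop codon, into their mRNA. A ribosome that stops well before the last exon junction leaves junction-bound proteins on the mRNA, and UPF1, UPF2 and UPF3 then direct its decay. HBS1L and its partner PELO act at another step, where they release ribosomes that have stalled on an mRNA.

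The labels put 41 libraries into 14 groups, with 30 of ribosome footprints (the mRNA pieces covered by ribosomes) and 11 of RNA. Whole embryos at E8.5 of strain C57BL/6NJ were Hbs1l -/- or Wildtype, and each library held pooled embryos. Cerebella at P14 of strain C57BL/6J were Atoh-Cre;Hbs1l cKO or Atoh-Cre;Hbs1l +/+, where Cre acts in the lineage that gives granule neurons and not in other cerebellar cells. Per the methods the cKO was Hbs1l fl/-, so that cells outside this lineage carried a single intact allele, unlike those of controls. Mouse embryonic fibroblasts (MEFs) of strain C57BL/6 all carried CAG-Cre ER and all received Tamoxifen, controls included, and were either CAG-Cre ER alone or in addition Hbs1l cKO, Pelo cKO or Upf2 cKO (called Hbs1l-/- and Pelo-/- below, and for Upf2 by the label). Every group had 3 libraries except Pelo-/- RNA with 2, since the authors left out a further one as an outlier. A cerebellum library came from 1 mouse and a MEF RNA library from 1 embryo, and MEF footprints came from 3 individual embryos a group. The labels give each footprint comparison its own batch with its own controls, and all RNA libraries a single batch, so the RNA comparisons share their 3 control libraries. Assigned reads per library came to 2634480 to 7298812 for embryo footprints, 10919139 to 22591768 for cerebellum footprints, 5782990 to 25607974 for MEF footprints and 22713643 to 86425762 for RNA.

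The stretches below show why most of these transcripts are annotated as NMD targets. Each runs from the 5′ end of the exon that holds the stop codon through that codon, which is in capitals, and was read from the Gencode M21 transcripts on GRCm38 (mm10). Of the 17 transcripts, 12 stop in an exon with no base in the gene's most abundant protein-coding transcript, and 17 of 17 stop at least 50 bases before the last exon junction.
Tra2b-206, chr16:22259181-22259261, minus strand: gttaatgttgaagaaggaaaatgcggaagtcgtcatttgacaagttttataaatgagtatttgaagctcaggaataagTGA
Srsf3-201, chr17:29039454-29039487, plus strand: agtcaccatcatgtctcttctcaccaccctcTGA
Srsf7-203, chr17:80205054-80205081, minus strand: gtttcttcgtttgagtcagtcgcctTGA
Srsf4-204, chr4:131884295-131884390, plus strand: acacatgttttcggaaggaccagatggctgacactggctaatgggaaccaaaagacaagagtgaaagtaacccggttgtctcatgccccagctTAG
Srsf6-201, chr2:162932815-162932966, plus strand: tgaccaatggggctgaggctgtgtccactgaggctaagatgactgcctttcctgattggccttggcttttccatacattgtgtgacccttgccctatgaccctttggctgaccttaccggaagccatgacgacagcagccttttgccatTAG
Srsf11-206, chr3:158024209-158024231, minus strand: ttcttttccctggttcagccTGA
Srsf1-204, chr11:88049977-88050015, plus strand: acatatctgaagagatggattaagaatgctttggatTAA
The exons that hold these stop codons are 276 bases long in Tra2b, 456 in Srsf3, 460 in Srsf7, 188 in Srsf4, 268 in Srsf6 and 109 in Srsf11. In Srsf4-204 this is exon 1, so its 5′ end is where the annotated transcript begins. Srsf4-203 holds the same stop codon in exon 2, which is 207 bases long. From the stop codon to the last junction there are 1015 bases in Tra2b-206, 548 in Srsf3-201, 699 in Srsf7-203, 706 in Srsf4-204, 534 in Srsf6-201 and 456 in Srsf11-206. Srsf1-204 stops in a stretch that the main protein-coding transcript, Srsf1-201, also contains, 80 bases before the last junction. Srsf2 differs from these. Srsf2-204 and Srsf2-202 end translation at the stop codon of the protein-coding Srsf2-201, which lies 7 bases before the last junction there, but splicing further downstream puts the last junction 113 and 217 bases beyond the stop.

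**Figure D1:**
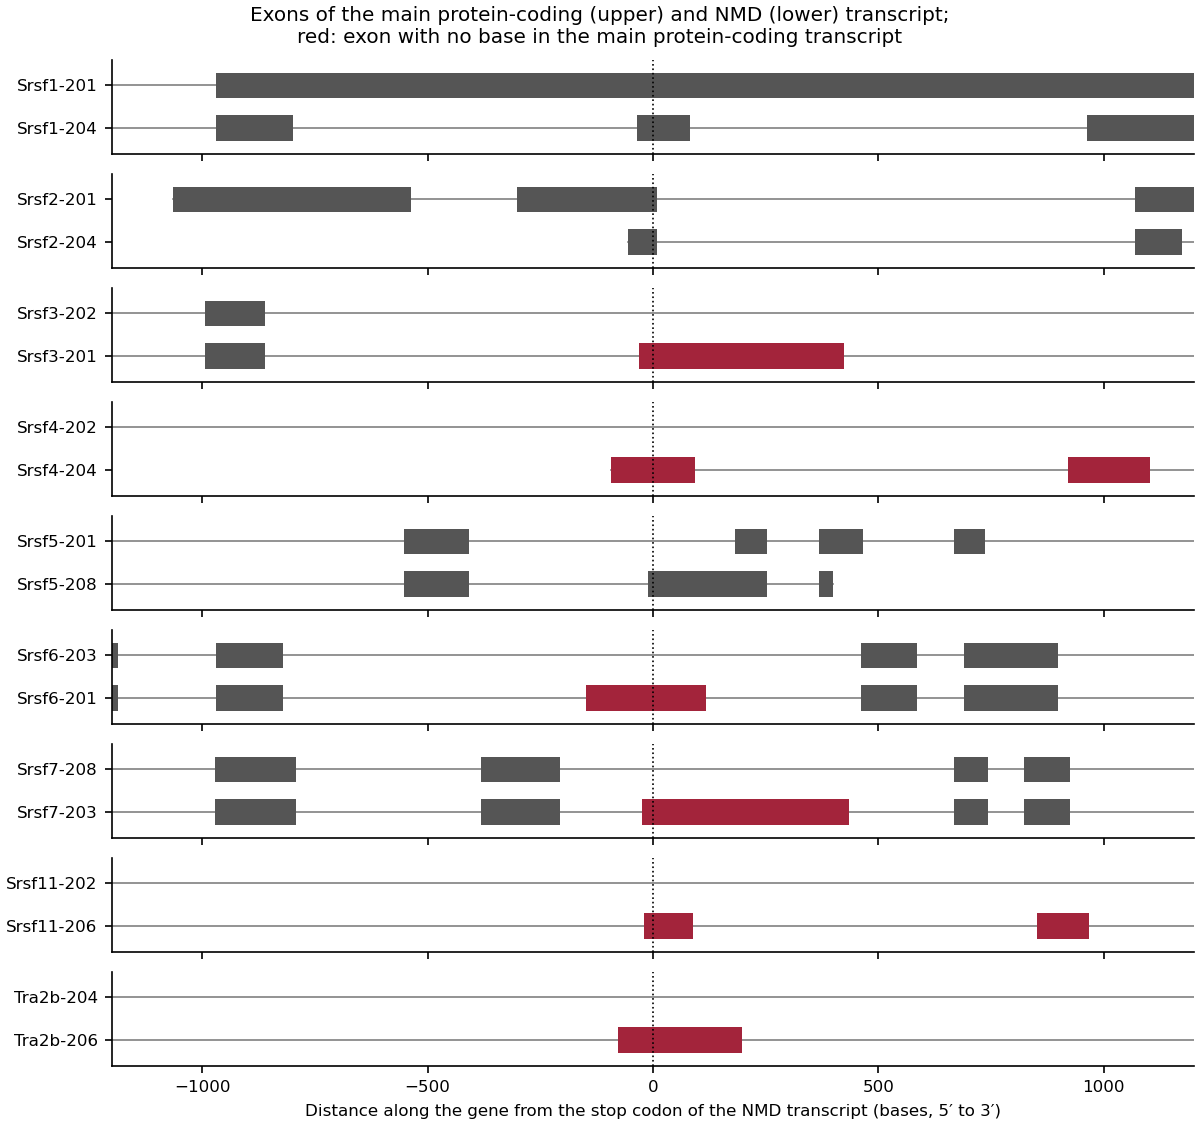
Exons within 1200 bases on each side of the stop codon of the NMD transcript, by distance in bases from that codon, for the 9 genes that have such a transcript. In each panel the upper row is the most abundant protein-coding transcript and the lower row the most abundant NMD transcript, with the exon that the protein-coding transcript lacks in red and the stop codon at 0. Srsf3, Srsf4, Srsf6, Srsf7, Srsf11 and Tra2b stop inside such an exon.

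The labels were checked against the targeted genes. Hbs1l footprints were lower in Hbs1l -/- embryos (50.4 to 60 CPM, counts scaled to the library's total, in controls and 2.78 to 8.92 in mutants), in the cKO cerebellum (37.5 to 44.9 and 12.8 to 15.7) and in Hbs1l-/- MEFs (32.6 to 39.5 and 1.51 to 2.6), and Pelo footprints in Pelo-/- MEFs went from 31.8 to 38.3 down to 2 to 2.98. Levels summed over a gene do not show whether only the part deleted in a cKO was lost, and this was not tested. Upf2 was not lower in the libraries that carry its label. Its footprints were higher in the libraries labelled Upf2 cKO (114, 113 and 118 CPM) than in their controls (55.2, 49.3 and 58.5), as was its RNA (20.6, 14.4 and 8.61 TPM, transcript abundance scaled for length and library, against 3.82, 5.63 and 4.51), with most of the increase in Upf2-202, a protein-coding transcript at 0.485 to 0.546 TPM in controls and 4.45 to 10.7 in these libraries. In the same libraries 10 of 10 genes widely used as readouts of NMD, such as Gas5 and Atf4, were higher in RNA, by 0.96 to 3.70 on the log2 scale, where 20% of 15983 genes were called in either direction. Hbs1l-/- MEFs had 1 of 10 higher, where 23.1% of 15318 genes were called, and in Pelo-/- MEFs 1 was higher and 2 were lower, where 32.1% of 14705 were. Summed levels of 8 fibroblast markers were 49469 to 57026 CPM in MEF footprints and 1563 to 4446 in embryo and cerebellum footprints, and in RNA they were 4646 to 5938 TPM in controls, 5780 to 7122 in Hbs1l-/-, 6737 to 7368 in Pelo-/- and 4040 to 4777 in the libraries labelled Upf2 cKO. MEF control libraries of the same number in different batches differed by a chi-square per degree of freedom of 1.1 to 1.19 over genes, close to sampling noise, whereas different libraries of a batch gave 4.06 to 12.6, so the footprint comparisons in MEFs in effect share their controls as well.

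The RNA of NMD transcripts was compared first, since it asks whether loss of each factor lets poison exon transcripts persist. In the libraries labelled Upf2 cKO the summed NMD transcripts of Srsf4, Srsf7, Tra2b, Srsf3, Srsf2, Srsf1 and Srsf6 rose 1.38-fold to 10.7-fold over controls, which is 7 of the 8 genes that passed the filter on low counts, where 30% of 2297 such sums were called higher over all genes. The median log2 fold change was 2.35 for the 8 genes and 0.84 over all 2297. Calls are from edgeR's quasi-likelihood test on estimated counts summed per gene and annotated type, at an adjusted p of at most 0.05. Srsf5 was not tested, with 0 to 0.142 TPM of its NMD transcript in controls and in the libraries labelled Upf2 cKO.

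Tra2b, which encodes an SR-like activator of exon inclusion, had 4.51, 9.84 and 9.38 TPM of NMD transcripts in the 3 control libraries and 54.8, 53.9 and 33.6 in the 3 libraries labelled Upf2 cKO. In Hbs1l-/- MEFs it had 5.89, 10 and 10.4 TPM, and in Pelo-/- MEFs 6.81 and 4.13. The libraries labelled Upf2 cKO stood above all others, and the other 3 groups overlapped. The log2 fold change of Tra2b over controls was 2.54 ± 0.25 (SE, n = 3 and 3, edgeR adjusted p = 0.000615).

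Srsf3, the smallest of the family and a factor in mRNA export, had 7.48, 10.3 and 9.1 TPM in controls and 62.2, 51 and 43.3 in the libraries labelled Upf2 cKO. The values in Hbs1l-/- MEFs were 3.89, 7.51 and 8.42 TPM, and in Pelo-/- MEFs 7.02 and 8.11. Again only the libraries labelled Upf2 cKO stood apart, by a log2 fold change of 2.51 ± 0.14 (SE, n = 3 and 3, edgeR adjusted p = 3.95e-05).

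Srsf4, which encodes a long SR protein, and Srsf7, which encodes an export adaptor, started from low levels and showed the steepest rises. Srsf4 NMD transcripts were at 1.27, 1.58 and 1.44 TPM in controls and at 16, 15.7 and 14.8 in the libraries labelled Upf2 cKO, a log2 fold change of 3.42 ± 0.16 (SE, edgeR adjusted p = 2.24e-05). Srsf7 had 1.4, 1.27 and 0.959 TPM in controls and 13.4, 12.8 and 10.1 in the libraries labelled Upf2 cKO, a log2 fold change of 3.30 ± 0.22 (SE, edgeR adjusted p = 0.000113). Neither gene's groups overlapped.

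Srsf2, whose protein is a core exon-recognition factor, had the highest NMD level of the genes in the libraries labelled Upf2 cKO, at 84.3, 88.8 and 75.5 TPM, against 13.9, 13.7 and 33.1 in controls (log2 fold change 2.19 ± 0.30 SE, edgeR adjusted p = 0.00288). Control library 3 was far above the other 2 controls but still below the lowest library labelled Upf2 cKO. In Hbs1l-/- MEFs the values were 37.8, 21.5 and 24.1 TPM and in Pelo-/- MEFs 26.6 and 25.1, which overlapped the controls.

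Srsf6, a splicing activator, behaved differently from the others. Its NMD transcript was already abundant in controls, at 28.1, 35.1 and 41.4 TPM, and reached 49.3, 55.2 and 42.4 in the libraries labelled Upf2 cKO, with the lowest of these just above the highest control (log2 fold change 0.46 ± 0.12 SE, edgeR adjusted p = 0.0363). Of the 1636 stretches of 31 bases in this transcript, Srsf6-201, only 28 occur in no other transcript. Its level and share therefore rest on how reads from shared sequence were assigned, which was not tested. Srsf6 in Hbs1l-/- MEFs was at 52.3, 47.4 and 41.3 TPM, within the range that the controls and the libraries labelled Upf2 cKO span together. Srsf1, which encodes the archetypal SR protein, had 0.235, 0.725 and 0.856 TPM in controls and 4.47, 2.32 and 1.72 in the libraries labelled Upf2 cKO (2.12 ± 0.50 SE, edgeR adjusted p = 0.0265), with no overlap. Srsf11 had 3.12, 1.74 and 1.16 TPM in controls and 7.65, 8.17 and 5.78 in the libraries labelled Upf2 cKO, also without overlap, but missed the threshold (1.68 ± 0.48 SE, edgeR adjusted p = 0.0507). The calls of Srsf2, Srsf3, Srsf4, Srsf7 and Tra2b held under 11 of 11 alternatives, whereas Srsf1 was lost without control library 1, control library 2 or library 1 or 2 labelled Upf2 cKO (adjusted p 0.0535 to 0.0771), and Srsf6 without control 1 or 2, without any of the 3 libraries labelled Upf2 cKO (0.0552 to 0.144), with no filter on low counts (0.0507) and with limma on log2(TPM + 0.5) (0.118).

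Set against its own gene, the NMD share showed how far the balance moved. In controls NMD transcripts made up 16% ± 4.23 (SD, n = 3) of Tra2b TPM, 7.96% ± 1.02 of Srsf3, 15.6% ± 7.09 of Srsf2 and 7.18% ± 0.929 of Srsf4. In the libraries labelled Upf2 cKO these shares were 64.9% ± 2.49, 47.7% ± 7.79, 46.2% ± 3.61 and 33.2% ± 2.31 (SD, n = 3). Most Tra2b RNA therefore carried the poison exon annotation in those 3 libraries, at 67.8%, 63.2% and 63.8%.

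Srsf7 went from 1.31% ± 0.414 to 11% ± 1.31, Srsf11 from 5.92% ± 3.49 to 15.8% ± 1.23, Srsf1 from 0.722% ± 0.349 to 3.56% ± 1.65 and Srsf6 from 47.9% ± 4.34 to 57.6% ± 1.46. The share was higher in every library labelled Upf2 cKO than in every control for 8 of 9 genes, the exception being Srsf5, where 32.2% of 3275 genes of at least 1 TPM with NMD and other transcripts separated in that direction. A test of type usage, which compares a type's change with that of its gene (edgeR diffSpliceDGE), called the NMD type higher for 6 of 8 genes, where 19.3% of 2239 were called over all genes. These were Srsf7 (log2 3.07), Srsf3 (2.56), Srsf4 (2.51), Srsf1 (2.25), Srsf2 (2.14) and Tra2b (2.03), while Srsf11 (1.44, adjusted p = 0.0956) and Srsf6 (0.37, adjusted p = 0.258) were not called. Srsf1 lost its usage call without any of the 3 controls or without library 1 labelled Upf2 cKO (adjusted p 0.0684 to 0.279), and with no filter on low counts (0.0502).

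**Figure D2:**
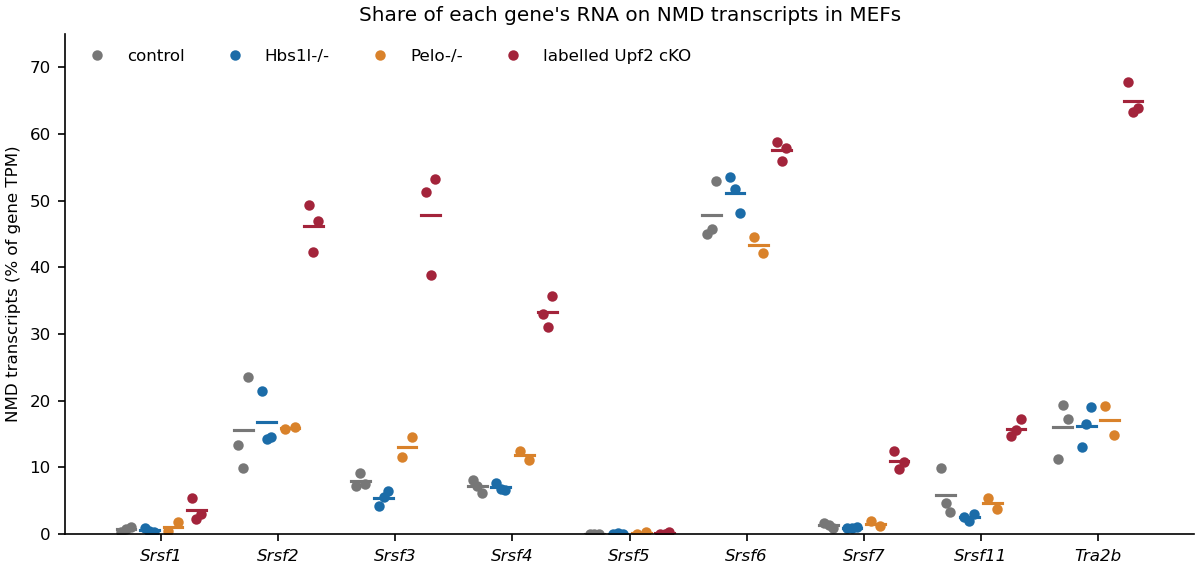
Share of each gene's TPM in transcripts annotated as nonsense_mediated_decay, in percent, for each of the 11 RNA libraries (points) with group means (lines), for the 9 genes with such transcripts side by side, coloured by group. Tra2b libraries labelled Upf2 cKO sit between 63.2% and 67.8% and its controls between 11.3% and 19.4%, Srsf6 controls lie between 45% and 52.9%, and Srsf5 is at most 0.317%.

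By transcript, 7 of the 11 NMD transcripts tested rose in the libraries labelled Upf2 cKO, where 14.7% of 2945 NMD transcripts did so over all genes. Srsf4-204 went from 0.965, 0.772 and 1.1 TPM to 11.2, 11.4 and 10.8, and Srsf4-203, which uses the same stop codon in a longer exon, from 0.305, 0.805 and 0.332 TPM to 4.78, 4.36 and 4.05. Their log2 fold changes were 3.51 ± 0.24 and 3.23 ± 0.44 (SE), next to 3.26 ± 0.23 for Srsf7-203, 2.53 ± 0.27 for Tra2b-206 and 2.49 ± 0.13 for Srsf3-201. The poison exon forms printed above thus accounted for most of the NMD sums of these genes. For Srsf2 the abundant form was Srsf2-204 (13.6, 13.3 and 32.5 TPM in controls and 75.1, 82.6 and 67.3 in the libraries labelled Upf2 cKO, log2 fold change 1.86 ± 0.35 SE), and the minor Srsf2-202 went from 0.349, 0.409 and 0.504 to 9.2, 6.21 and 8.21 TPM (4.18 ± 0.29 SE).

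Srsf1-204, Srsf6-201, Srsf11-206 and Srsf11-212 were not called, with edgeR adjusted p of 0.0856, 0.0947, 0.206 and 0.125 and log2 fold changes of 2.15, 0.45, 1.55 and 2.77. Srsf2-204 lost its call without control 1 or 2 or any library labelled Upf2 cKO (adjusted p 0.0942 to 0.124), and Srsf4-203 without any library labelled Upf2 cKO (0.0574 to 0.0609). The sequence that sets these forms apart differs by gene. Srsf2-204 has 0 bases outside the exons of the protein-coding Srsf2-201, and 0 of its 31-base words occur in no other transcript. Srsf3-201 and Tra2b-206 have 456 and 276 bases outside the main protein-coding form, although other annotated forms share most or all of these: Srsf3-206, which holds the same exon, was at 0 TPM in 11 of 11 libraries. The protein-coding Srsf2-206, picked after its values were seen, stood at 1.53 to 1.54 times Srsf2-202 in 11 of 11 libraries, so their levels cannot be told apart. Srsf2-206 rose from 0.538, 0.63 and 0.773 TPM in controls to 14.1, 9.54 and 12.6 in the libraries labelled Upf2 cKO (log2 fold change 4.19 ± 0.27 SE, edgeR adjusted p = 0.00152). Though annotated as protein_coding, it has the stop codon of Srsf2-202 and the same 217 bases from there to the last junction. Its TPM are part of the protein-coding sum and share of Srsf2.

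Protein-coding sums were called in both directions. In the libraries labelled Upf2 cKO the protein-coding sums of Srsf3 and Srsf5 fell, 2 of 10 genes, where 6.44% of 13464 such sums were called lower over all genes, and that of Srsf4 rose. Srsf3 had 92.4, 100 and 107 TPM in controls and 53.4, 73.5 and 33.5 in the libraries labelled Upf2 cKO (log2 fold change -0.97 ± 0.21 SE, edgeR adjusted p = 0.019). Each of these libraries was below every control, while the gene's total, with its NMD form, gave a log2 fold change of -0.01 (interval of ± 2 SE, -0.26 to 0.24). Srsf5, an SR protein whose RNA responds to growth signals, had 61.3, 80.9 and 91.5 TPM against 52.1, 57.6 and 35.9 (-0.73 ± 0.15 SE, edgeR adjusted p = 0.0169). Srsf4 had 14.3, 19.9 and 21.5 TPM against 32, 34.6 and 26.4 (0.72 ± 0.12 SE, edgeR adjusted p = 0.00738), so both its protein-coding and its NMD forms rose. Without control 1, control 3 or library 1 labelled Upf2 cKO the Srsf3 value was not called (adjusted p 0.0502, 0.0515 and 0.0598), nor was Srsf5 without control 3 (0.0575), and limma on log2(TPM + 0.5) called neither (0.0588 and 0.0931).

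Of the 2 protein-coding forms of Tra2b, the lower one in the libraries labelled Upf2 cKO was Tra2b-201, singled out after its values were seen. Tra2b-201 had 17.5, 18.6 and 22.9 TPM in controls and 0.589, 2.79 and 1.88 in the libraries labelled Upf2 cKO (log2 fold change -3.50 ± 0.51 SE, edgeR adjusted p = 0.0164), with no overlap. Tra2b-204 had 17.4, 21.7 and 21.5 TPM against 24.6, 26.8 and 16.1 (0.10 ± 0.14 SE), with overlap. Tra2b-201 lost its call without control 1 or 2 or library 2 or 3 labelled Upf2 cKO (adjusted p 0.0504 to 0.0767).

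The protein-coding share of the gene was lower in every library labelled Upf2 cKO than in every control for 9 of 10 genes, Srsf1 being the exception, where 22.8% of 8942 genes with other types separated in that direction. Type usage called it lower for 2 of 10 genes, Srsf3 (log2 -0.91, adjusted p = 0.00517) and Tra2b (-0.82, adjusted p = 0.00628), where 0.624% of 6247 were called lower over all genes. For Srsf3 that call was lost without library 1 labelled Upf2 cKO (adjusted p = 0.0718).

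Retained intron transcripts, in which an intron stays in the RNA, were summed in the same way. In the libraries labelled Upf2 cKO 2 of 9 retained intron sums rose, where 10.9% of 4168 did so over all genes: Srsf5 from 1.47, 2.67 and 1.84 TPM to 4.73, 4 and 2.91 (log2 fold change 0.91 ± 0.22 SE, edgeR adjusted p = 0.0302) and Srsf6 from 2.24, 3.5 and 2.12 to 4.03, 4.54 and 4.4 (0.71 ± 0.20 SE, edgeR adjusted p = 0.0469). Neither pair of groups overlapped. The most abundant retained intron form of all, Srsf1-203, had 9.99, 14.7 and 17.2 TPM in controls and 10, 18.7 and 5.99 in the libraries labelled Upf2 cKO. Its level rests on how reads from sequence shared with protein-coding Srsf1 transcripts were assigned, which was not tested. These values therefore do not show that an intron stayed in Srsf1 RNA. Srsf1-203 made up most of the Srsf1 retained intron sum, to which the same limit applies. Of 18 single retained intron transcripts, 0 were called by edgeR and 3 had an unadjusted p under 0.05, where 5% of 5696 were called in either direction over all genes. Type usage called 1 of 9 retained intron types higher, Srsf5 (log2 1.43, adjusted p = 0.00222), where 4.31% of 4084 were over all genes, and the call held under 9 of 9 alternatives. Both sums lost their call without control 1, control 3, or library 1 or 2 labelled Upf2 cKO (adjusted p 0.073 to 0.127), and Srsf6 without library 3 as well (0.124), and limma called neither (0.0792 and 0.0843).

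Srsf10, a splicing repressor when dephosphorylated, has no NMD annotation, but its processed_transcript sum, a type with no annotated reading frame, went from 5.45, 6.49 and 10.3 TPM to 18.2, 17.3 and 11.2 (log2 fold change 1.23 ± 0.23 SE, edgeR adjusted p = 0.0113). The same type of Srsf5 went from 2.79, 6.4 and 4.16 to 10.3, 9.29 and 5.83 TPM (1.37 ± 0.29 SE, edgeR adjusted p = 0.0188), with groups that overlapped. These 2 values were picked after they were seen, and Srsf5 lost its call without control 3 or library 1 or 2 labelled Upf2 cKO (0.0578 to 0.0701), Srsf10 without control 2 (0.0502), and both with limma (0.123 and 0.0516). Srsf3, whose sum of this type was also tested, was not called (1.32 ± 0.77 SE, edgeR adjusted p = 0.28). The share of such sums called over all genes is not given here, so the 2 calls cannot be set against it.

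**Figure D3:**
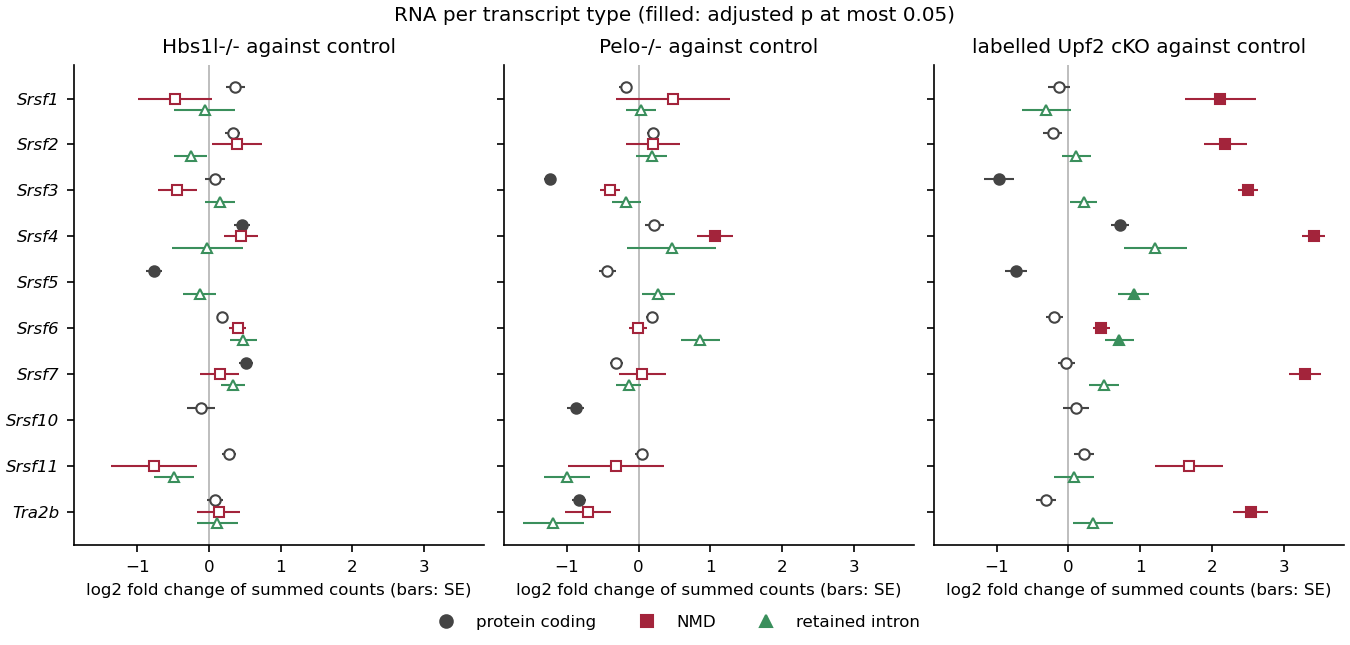
Log2 fold change in RNA against control MEFs with its SE for the sums of NMD, retained intron and protein-coding transcripts of each gene, in 1 panel for each mutant. Filled points passed an adjusted p of 0.05. In the libraries labelled Upf2 cKO the NMD points reach 3.42 for Srsf4, while in Hbs1l-/- MEFs they lie between -0.76 and 0.45.

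The NMD transcripts of these genes showed no call in Hbs1l-/- MEFs, with 0 of 8 sums called by edgeR, 1 with an unadjusted p under 0.05, and 3.07% of 1888 such sums called in either direction over all genes. That 1 was Srsf6 (log2 fold change 0.40 ± 0.12 SE, adjusted p = 0.0755), with 52.3, 47.4 and 41.3 TPM in the mutant libraries. DESeq2 called 1 of the NMD and retained intron sums. For the genes with the clearest rise in the libraries labelled Upf2 cKO the intervals (± 2 SE) were -0.39 to 0.69 for Srsf7, -0.03 to 0.93 for Srsf4, -0.46 to 0.74 for Tra2b and -0.98 to 0.09 for Srsf3, so a rise of the size seen there lies outside each of them. The NMD share of Srsf3 was lower in each Hbs1l-/- library (4.17%, 5.63% and 6.53%) than in each control (7.17%, 9.11% and 7.59%), and that of Srsf11 as well (1.97% to 2.96% against 3.26% to 9.87%), where 4.82% of 3275 genes separated in that direction, while 7 genes overlapped. Type usage called 0 of 8 with edgeR (0 with an unadjusted p under 0.05) where 0.383% of 1830 were called, and single NMD transcripts 0 of 10 (1 with an unadjusted p under 0.05) where 0.436% of 2296 were. For retained introns 0 of 9 sums were called by edgeR (1 with an unadjusted p under 0.05), where 1.87% of 3692 were.

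Protein-coding RNA did move in Hbs1l-/- MEFs, for 3 of 10 genes, where 14.5% of 13213 sums were called in either direction over all genes. Srsf7 had 76.6, 91.5 and 102 TPM in controls and 127, 140 and 138 in Hbs1l-/- MEFs (log2 fold change 0.52 ± 0.10 SE, edgeR adjusted p = 0.0191), and Srsf4 had 14.3, 19.9 and 21.5 against 28, 25.9 and 24.1 (0.46 ± 0.11 SE, edgeR adjusted p = 0.0432). Srsf5 went the other way, from 61.3, 80.9 and 91.5 TPM to 45.5, 49 and 44.5 (-0.77 ± 0.11 SE, edgeR adjusted p = 0.00986). In none of the 3 did mutant and control libraries overlap. Srsf5 held under 11 of 11 alternatives, but Srsf7 was lost without control 1 or 2 or Hbs1l-/- library 2 or 3 (adjusted p 0.0679 to 0.0806) and Srsf4 without any of the 6 libraries (0.0514 to 0.128), with no filter on low counts (0.0649) and with limma (0.133).

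In Pelo-/- MEFs 1 of 8 NMD sums was called, Srsf4, where 7.23% of 1798 were called in either direction over all genes. It had 1.27, 1.58 and 1.44 TPM in controls and 3.39 and 3.03 in Pelo-/- MEFs, below the 14.8 to 16 of the libraries labelled Upf2 cKO (log2 fold change over controls 1.07 ± 0.25 SE, edgeR adjusted p = 0.0362). The call was lost without any of the 5 libraries (adjusted p 0.066 to 0.179), with no filter on low counts (0.126) and with limma (0.0596). Tra2b was at -0.71 (adjusted p = 0.185), Srsf3 at -0.40 (0.115) and Srsf7 at 0.05 (0.934), and the interval for Srsf7 was -0.61 to 0.72. Of 9 NMD shares 2 were higher in both Pelo-/- libraries than in every control (Srsf3 and Srsf4), 1 was lower (Srsf6) and 6 overlapped, where 9.31% and 8% of 3275 genes separated upward and downward. The Srsf3 NMD share was higher in both Pelo-/- libraries (11.5% and 14.5%) than in controls (7.17% to 9.11%), while its protein-coding RNA was lower, and type usage did not call it (log2 0.72, adjusted p = 0.194). Type usage called 0 of 8 NMD types with edgeR (1 with an unadjusted p under 0.05) where 0.745% of 1745 were called, and single NMD transcripts 0 of 9 (2 with an unadjusted p under 0.05) where 0.97% of 2165 were. Of 9 retained intron sums 0 were called by edgeR and 3 had an unadjusted p under 0.05 (Srsf6, Srsf11 and Tra2b), where 4.36% of 3351 were called, and DESeq2 called 3 of the NMD and retained intron sums together.

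Protein-coding RNA of 3 genes fell in Pelo-/- MEFs, where 12.4% of 12955 sums did so over all genes. Srsf3 had 92.4, 100 and 107 TPM in controls and 50.6 and 44.6 in Pelo-/- MEFs, a log2 fold change of -1.24 ± 0.08 (SE, n = 2 and 3, edgeR adjusted p = 0.00327). Tra2b had 34.9, 40.2 and 44.3 TPM against 28.2 and 23.4 (-0.83 ± 0.10 SE, edgeR adjusted p = 0.00677), and Srsf10 had 13.7, 19.7 and 17.4 against 11.1 and 9.78 (-0.88 ± 0.12 SE, edgeR adjusted p = 0.00903). Both Pelo-/- libraries were below every control in each case. Without Pelo-/- library 2 the 3 calls were lost (adjusted p 0.051, 0.0793 and 0.105), and without library 1 that of Srsf10 (0.0742). limma on log2(TPM + 0.5) did not call Tra2b (0.0847) or Srsf10 (0.0993).

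The mutants were also compared with each other, which avoids the shared controls. The NMD sums were higher in the libraries labelled Upf2 cKO than in Hbs1l-/- MEFs for 7 of 8 genes, where 32.9% of 2368 were called higher over all genes, with a median log2 difference of 2.47 against 0.80. Srsf7 (3.09 ± 0.16 SE), Srsf4 (2.96 ± 0.16), Srsf3 (2.92 ± 0.28), Srsf11 (2.39 ± 0.33) and Tra2b (2.38 ± 0.26) were among them with edgeR adjusted p from 4.47e-05 to 0.00276, and all 7 held under 10 of 10 alternatives. Srsf6 was the exception (0.05, interval -0.16 to 0.25).

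NMD sums in Pelo-/- MEFs were lower than in the libraries labelled Upf2 cKO for 7 of 8 genes, where 30.1% of 2351 were called lower, with a median of -2.12 against -0.88 and the largest differences in Tra2b (-3.20 ± 0.25 SE), Srsf7 (-3.15 ± 0.22) and Srsf3 (-2.85 ± 0.18). Srsf1 was not called there (-1.61, adjusted p = 0.132), and Srsf6 (-0.42) lost its call without Pelo-/- library 1 or 2 or library 2 labelled Upf2 cKO (adjusted p 0.0732 to 0.229). Between Pelo-/- and Hbs1l-/- MEFs 1 of 7 NMD sums differed, Srsf6 (-0.37 ± 0.10 SE, edgeR adjusted p = 0.0478), where 11% of 1872 were called in either direction, and it was lost without Hbs1l-/- library 2 or Pelo-/- library 1 or 2 (0.108 to 0.264) and with RLE factors (0.0525).

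Total RNA per gene gave another picture from the NMD sums. In Hbs1l-/- MEFs 5 of 10 genes were called, out of the same 23.1% of 15318 over all genes: Srsf7 (log2 fold change 0.51 ± 0.10 SE), Srsf4 (0.45 ± 0.11), Srsf2 (0.32 ± 0.10) and Srsf6 (0.28 ± 0.08) rose and Srsf5 (-0.74 ± 0.10) fell, with edgeR adjusted p from 0.00234 to 0.0404. Without control 1, control 2 or Hbs1l-/- library 2 only Srsf5 and Srsf7 remained, 3 genes were called without control 3 or Hbs1l-/- library 3, and Srsf6 was not called with no filter on low counts (0.0901). Total RNA of 5 genes was lower in Pelo-/- MEFs, where 16.6% of 14705 were: Srsf3 (-1.10 ± 0.07 SE), Srsf10 (-0.85 ± 0.10), Tra2b (-0.81 ± 0.11), Srsf5 (-0.37 ± 0.12) and Srsf7 (-0.28 ± 0.08), with adjusted p from 0.000559 to 0.0475. Without control 3, Pelo-/- library 1 or Pelo-/- library 2 only Srsf3, Srsf10 and Tra2b remained.

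In the libraries labelled Upf2 cKO 3 genes were called, out of the same 20% of 15983 over all genes: Srsf4 (0.96 ± 0.11 SE, adjusted p = 0.000269) and Tra2b (0.56 ± 0.13, 0.0139) rose and Srsf5 (-0.47 ± 0.14, 0.0342) fell. Srsf4 had 15.7, 21.8 and 23 TPM over all types in controls and 48.5, 50.7 and 41.6 in these libraries. Tra2b had 40, 50.6 and 54.3 against 80.9, 85.3 and 52.7, which overlapped, and without control 2 or library 2 labelled Upf2 cKO only Srsf4 was called. The Srsf5 call was also lost without control 3 or library 1 or 3 labelled Upf2 cKO (adjusted p 0.0519 to 0.13).

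Footprints count ribosomes on the coding sequence of a gene. The counts cover every annotated coding sequence, that of NMD forms included (942 bases in all for Tra2b against 864 in its main protein-coding form, and 523 against 492 for Srsf3). NMD forms held on average 64.9% of Tra2b and 47.7% of Srsf3 TPM in the libraries labelled Upf2 cKO, so a higher count there cannot be told apart from ribosomes on NMD forms. In Hbs1l-/- MEFs 5 of 10 genes rose, where 17.4% of 11984 did over all genes, in Pelo-/- MEFs 8, where 22.9% of 12486 did, and in MEFs labelled Upf2 cKO 7, where 22.3% of 12166 did, and 0 fell in the 3 comparisons. Median log2 fold changes over the 10 genes were 0.29, 0.41 and 0.39, against -0.01, 0.00 and 0.00 over all genes. Of the 8 fibroblast markers 6, 5 and 5 were called higher and 1, 1 and 2 lower in the same comparisons, and their part in the result was not tested. In bulk samples a change in the number of cells of a type and a change per cell cannot be told apart.

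Srsf7 footprints were at 131, 122 and 142 CPM in the controls of the Hbs1l batch and at 192, 164 and 183 in Hbs1l-/- MEFs, with no overlap (log2 fold change 0.45 ± 0.08 SE, edgeR adjusted p = 0.000559). In Pelo-/- MEFs they were at 182, 182 and 182 CPM against 135, 126 and 139 (0.44 ± 0.06), and in MEFs labelled Upf2 cKO at 190, 181 and 162 against 131, 121 and 146 (0.44 ± 0.08). The 3 mutants thus showed nearly the same Srsf7 value against controls that are close to identical.

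Srsf4 footprints went from 40.8, 35.3 and 38.5 CPM to 52.4, 47.8 and 54.1 in Hbs1l-/- MEFs (0.44 ± 0.09 SE, edgeR adjusted p = 0.00179). In Pelo-/- MEFs they went from 41.7, 34.1 and 38.5 to 58, 60.4 and 61.3 CPM (0.65 ± 0.09), and in MEFs labelled Upf2 cKO from 38.9, 40.7 and 44.4 to 68.1, 71.4 and 67.2 (0.75 ± 0.08, edgeR adjusted p = 2.51e-05). Every mutant library was above every control. Srsf1 rose likewise, by 0.35 ± 0.07, 0.38 ± 0.07 and 0.40 ± 0.07 (SE) in the 3 mutants.

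Tra2b footprints were at 14.8, 17.4 and 16.9 CPM in the controls of the Pelo batch and at 23.7, 25.6 and 31.6 in Pelo-/- MEFs (0.72 ± 0.13 SE, edgeR adjusted p = 0.00127). In MEFs labelled Upf2 cKO they were at 24.3, 27.4 and 26.2 CPM against 15.7, 13.6 and 18.1 (0.74 ± 0.12, edgeR adjusted p = 0.000575). Hbs1l-/- MEFs had 20.8, 20.6 and 17.1 CPM against 15.5, 13.8 and 17.3, which overlapped (0.33 ± 0.13, edgeR adjusted p = 0.0653).

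Srsf2 rose in Pelo-/- MEFs, from 239, 234 and 200 CPM to 325, 392 and 339 (0.64 ± 0.09 SE, edgeR adjusted p = 0.00035), and in MEFs labelled Upf2 cKO, from 248, 239 and 210 to 337, 329 and 338 (0.54 ± 0.07, edgeR adjusted p = 0.000109). Srsf10 passed the test in Pelo-/- MEFs, from 12.5, 13.2 and 13 CPM to 18.9, 20.1 and 18.9 (0.57 ± 0.10, edgeR adjusted p = 0.001), and Srsf11 in MEFs labelled Upf2 cKO, from 95.9, 99 and 90.3 to 108, 113 and 111 (0.23 ± 0.07, edgeR adjusted p = 0.015). Srsf6 rose in Hbs1l-/- MEFs (0.25 ± 0.07) and Pelo-/- MEFs (0.32 ± 0.07). Srsf5 did not pass the test in any of the 3 (-0.14, -0.08 and 0.04), while its total RNA was at -0.74, -0.37 and -0.47, values of which the first held its call under every library left out.

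Srsf3 was called in the 3 MEF comparisons, but weakly. It went from 15.3, 14.5 and 16.2 CPM to 23.4, 15.3 and 20.6 in Hbs1l-/- MEFs, where library 2 equalled the controls (0.39 ± 0.14 SE, edgeR adjusted p = 0.0433). Srsf3 in Pelo-/- MEFs was at 0.36 ± 0.13 and in MEFs labelled Upf2 cKO at 0.37 ± 0.12. The call in Hbs1l-/- MEFs was lost without control 1 or 2 or mutant library 1 or 3 (adjusted p 0.0945 to 0.245), in Pelo-/- MEFs without any control or mutant library 3 (0.0726 to 0.166), and in MEFs labelled Upf2 cKO without control 1 or 2 or mutant library 2 (0.0597 to 0.129), and DESeq2 called it in none of the 3 (0.0824, 0.0875 and 0.063). Without Hbs1l-/- library 1 that comparison called 3 genes, and Srsf6 was no longer called (0.0594), and in MEFs labelled Upf2 cKO Srsf11 was lost without control 1 (0.0566) or mutant library 2 (0.0561). Footprints are short, and 94.8% of the 28-base windows of the Srsf3 coding sequence also occur in other genes, as do 86.8% of Srsf10, 86.6% of Tra2b, 73.7% of Srsf5 and 14.5% of Srsf7 windows. Those of these other genes that share the most windows and could be read in the RNA tables, 9 in all and mostly processed pseudogenes, had 0 to 0.526 TPM in the 11 RNA libraries, and their part in the footprint levels of these 5 genes was not tested.

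**Figure D4:**
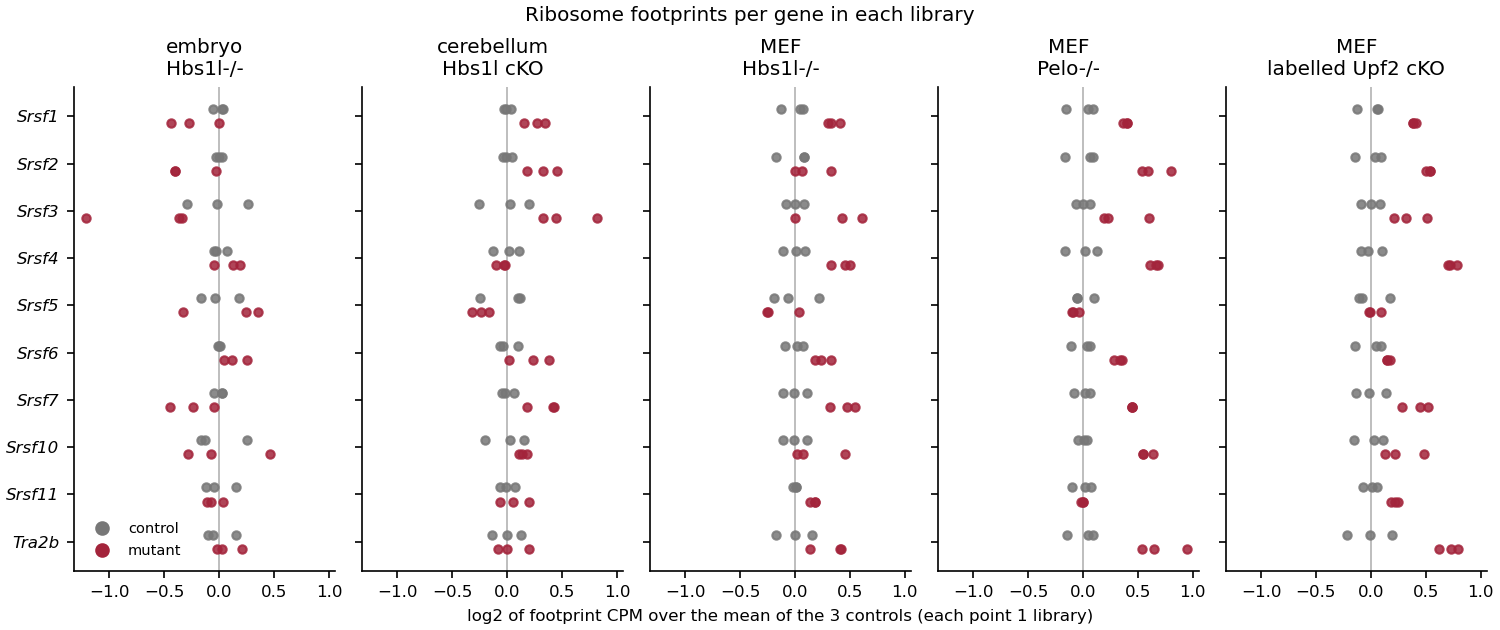
Footprints of the 10 genes in each mutant library as log2 of CPM over the mean of the 3 controls of its comparison, with the controls drawn beside them, in 5 panels (embryo, cerebellum and 3 MEF mutants). Points are libraries. In the 3 MEF panels Srsf1, Srsf4 and Srsf7 lie above every control, and in the embryo panel the mutants of Srsf2 and Srsf3 lie below.

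In embryos and cerebella none of the 10 genes was called. In Hbs1l -/- embryos edgeR called 0 of 10 and 1 had an unadjusted p under 0.05, where 1.87% of 11416 genes were called in either direction. In the Hbs1l cKO cerebellum 0 of 10 were called and 4 had an unadjusted p under 0.05, where 0.0624% of 14430 were called.

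Srsf3 was at 39.1, 47.5 and 32.4 CPM in Wildtype embryos and 30.8, 31.3 and 17.1 in Hbs1l -/- embryos (log2 fold change -0.57 ± 0.24 SE, adjusted p = 0.226). In the cerebellum it was at 18.1, 24.9 and 22 CPM in controls and 38.3, 27.1 and 29.4 in the cKO (0.54 ± 0.17, adjusted p = 0.232). Both differences left the groups apart, in opposite directions. With Srsf1, Srsf2 and Srsf7, 4 of 10 genes were higher in every cKO cerebellum than in every control, where 9.34% of 14430 genes separated in that direction, and none of the 4 passed the test. Srsf7 was at 81.2, 88 and 83.1 CPM in controls and 113, 95.2 and 112 in the cKO (0.34, adjusted p = 0.261). In embryos Srsf2 was lower, at 886, 854 and 871 CPM against 851, 657 and 660 (-0.27, adjusted p = 0.335), and Srsf6 was higher, at 547, 544 and 550 against 563, 653 and 593 (0.14, adjusted p = 0.58), and neither pair overlapped. Over all 11416 genes tested 11.4% were higher and 12.3% lower in every Hbs1l -/- embryo library than in every Wildtype one, against 1 and 2 of the 10. Without Hbs1l -/- embryo library 1 Srsf2 was called lower (-0.39).

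Some summed levels of cell type markers stood apart between the groups in both tissues, and their part in these values was not tested. The summed level of 8 early embryo markers, globins such as Hba-x and Hbb-y among them, was 11124 to 14060 CPM in Wildtype and 2978 to 7518 in Hbs1l -/- embryos, with 3 of 8 called lower, and 4 epithelial markers went from 912 to 1010 up to 1211 to 1479. In the cerebellum 3 Purkinje cell markers summed to 3966 to 5846 CPM in controls and 2862 to 3183 in the cKO, and 8 granule neuron markers to 3073 to 4871 and 2899 to 3651, which overlapped.

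The effect of Hbs1l loss was compared between tissues by an interaction test that was added after the values were seen. The log2 fold change in MEFs exceeded that in embryos for 2 of 10 genes, where 3.26% of 13062 were called higher: Srsf7 by 0.67 ± 0.15 (SE, edgeR adjusted p = 0.0153) and Srsf1 by 0.57 ± 0.15 (edgeR adjusted p = 0.0343). Srsf3 differed by 0.94 ± 0.30 (adjusted p = 0.0612). Srsf1 was at 221, 192 and 216 CPM in control MEFs and 279, 258 and 263 in Hbs1l-/- MEFs, and at 731, 735 and 694 in Wildtype and 717, 593 and 530 in Hbs1l -/- embryos. The Srsf7 call was lost without control MEF library 2 (0.0537) or Hbs1l-/- MEF library 1 (0.0566), and the Srsf1 call without any 1 of 11 of the 12 libraries (0.0583 to 0.0988), Hbs1l -/- embryo library 1 being the exception, without which 4 genes were called. Between cerebellum and embryo, and between MEFs and cerebellum, edgeR called 0 of 10, with 4 and 1 at an unadjusted p under 0.05, where 0.732% of 14624 and 4.87% of 14446 genes were called in either direction.

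The tissues of control mice were compared to give the level of each factor. Footprints were lower in control cerebellum than in Wildtype embryos for 10 of 10 genes, where 36.1% of 13992 were lower over all genes, with a median log2 difference of -1.27 against 0.21. Per kilobase of coding sequence, with all footprint libraries normalised together, Srsf2 was at 1051 CPM in embryos, 160 in cerebellum and 396 in MEFs, Srsf1 at 694, 152 and 289, Srsf7 at 509, 95.3 and 204, and Srsf6 at 376, 74.5 and 218. These 4 led the order in each tissue, and Srsf10 (39.4, 17.5 and 18.3) and Tra2b (49.4, 18.6 and 18.9) came last in each, though 86.8% and 86.6% of their coding windows are shared with other genes, against 0 to 14.5% in the 4 leading genes, and the part of that sharing in the order was not tested.

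Srsf4 was closest to even between cerebellum and embryo, at 61.8 to 74.2 CPM and 83.1 to 89.9 on the same joint scale (-0.31 ± 0.12 SE, edgeR adjusted p = 0.0359), and Srsf2 differed most (-2.69 ± 0.12). Control MEFs were also lower than embryos for 10 of 10 genes, where 39% of 12616 were lower, with a median of -1.05 against -0.01 and a range from -0.49 in Srsf5 to -1.41 in Srsf2. Neighbours in the order whose libraries overlapped were Srsf11 and Srsf5, Srsf3 and Srsf4, Srsf4 and Tra2b, and Tra2b and Srsf10 in embryos, Srsf2 and Srsf1, Srsf5 and Srsf11, Srsf4 and Srsf3, and Tra2b and Srsf10 in cerebella, and Srsf6 and Srsf7, and Tra2b and Srsf10 in MEFs. Srsf4 lost its call between cerebellum and embryo without cerebellum library 1 or 2 or any embryo library (adjusted p 0.0568 to 0.124), and with no filter on low counts (0.0875). Tissue, age, strain, Cre, the Tamoxifen given to MEFs and batch cannot be told apart in these comparisons.

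Translational efficiency, the change in footprints relative to RNA, was tested in a model of both assays. In Pelo-/- MEFs 7 of 10 genes rose, where 24.3% of 12143 did over all genes, with a median of 0.51 against 0.04: Tra2b (1.55 ± 0.17 SE, edgeR adjusted p = 1.96e-05), Srsf3 (1.48 ± 0.15), Srsf10 (1.44 ± 0.13), Srsf7 (0.75 ± 0.10), Srsf1 (0.56 ± 0.13), Srsf2 (0.45 ± 0.14) and Srsf4 (0.41 ± 0.15). The 3 largest combined lower RNA with higher footprints. Srsf3, for instance, had RNA at -1.10 and footprints at 0.36. Those 3 are also the genes with the most coding windows shared with other genes (94.8%, 86.8% and 86.6% for Srsf3, Srsf10 and Tra2b), and the part of read assignment in the result was not tested. Tra2b, Srsf3, Srsf10, Srsf7 and Srsf1 held under 16 of 16 alternatives, while Srsf2 was lost without either Pelo-/- RNA library (0.0731 and 0.058) and Srsf4 without control RNA library 2 or 3, control footprint library 2 or 3, or any Pelo-/- library of either assay (0.0505 to 0.177), and with no filter on low counts (0.0505).

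In Hbs1l-/- MEFs edgeR called 0 of 10 for translational efficiency, with 1 at an unadjusted p under 0.05 (Srsf5, 0.62 ± 0.16 SE, adjusted p = 0.13), where 0.0336% of 11907 were called in either direction, and DESeq2 called 1. In MEFs labelled Upf2 cKO only Srsf2 was called higher (0.41 ± 0.14 SE, edgeR adjusted p = 0.0479), where 8.47% of 12054 were, next to Srsf5 (0.49, adjusted p = 0.0511) and Srsf1 (0.47, 0.0538), and the count of called genes ran from 0 to 3 as single libraries were left out. It was 0 without control RNA library 2 or 3, without control footprint library 1 or 2, without RNA library 3 labelled Upf2 cKO or without any footprint library labelled Upf2 cKO, 2 without control RNA library 1 and 3 without RNA library 2 labelled Upf2 cKO.

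**Figure D5:**
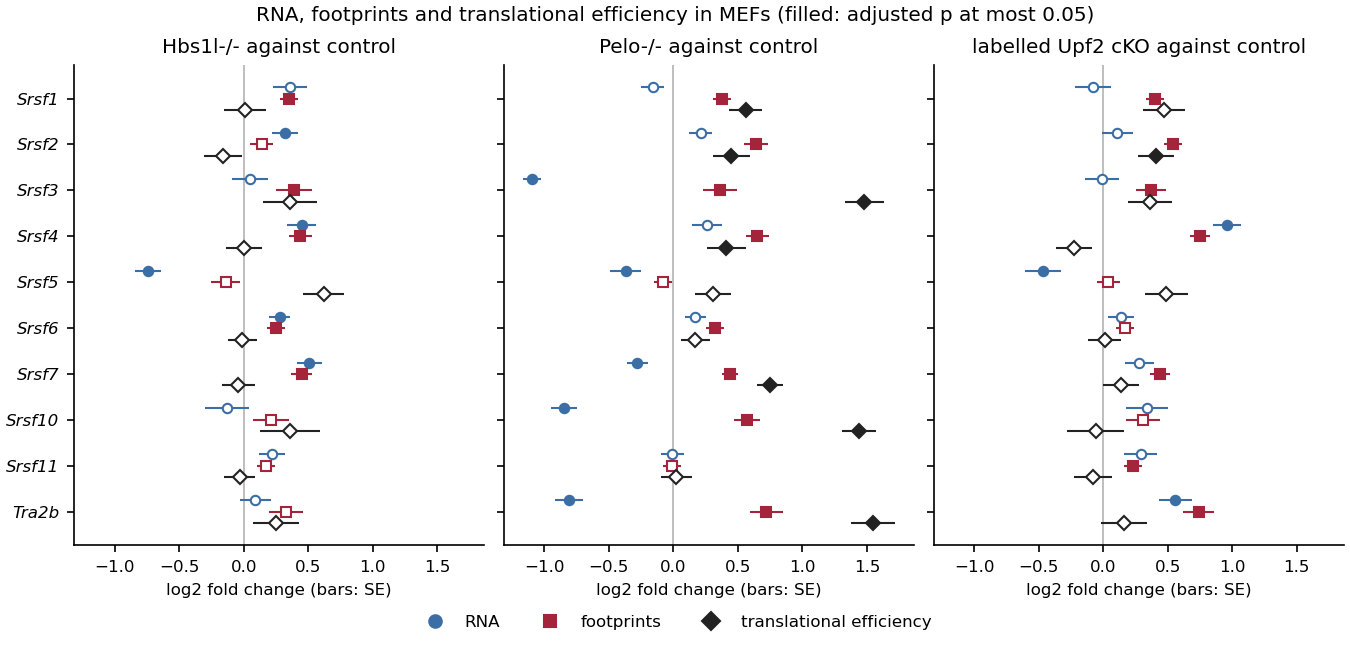
Log2 fold change with its SE of total RNA, of footprints and of their ratio (translational efficiency, TE) for the 10 genes, in 1 panel for each MEF mutant. Filled points passed an adjusted p of 0.05. In Pelo-/- MEFs RNA of Srsf3, Srsf10 and Tra2b lies at -1.10, -0.85 and -0.81, footprints at 0.36, 0.57 and 0.72, and TE above 1.

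Other genes of the same machinery were followed by list. Of 20 other SR and SR-related genes, 12 had a testable NMD sum in the libraries labelled Upf2 cKO, and 9 rose (Luc7l, Luc7l2, Rbm39, Rsrc2, Snrnp70, Son, Tra2a, U2af1 and U2af2, median log2 fold change 2.12), where 30% of all such sums did. In Hbs1l-/- MEFs 0 of 11 were called by edgeR (3.07% of all) and in Pelo-/- MEFs 1 was higher and 2 were lower of 10 (7.23% of all). Their footprints were called higher for 14, 14 and 17 of 20 in Hbs1l-/-, Pelo-/- and Upf2 cKO labelled MEFs, where 17.4%, 22.9% and 22.3% of all genes were, and for 0 in embryos or cerebella. Of 10 kinases and importers that act on SR proteins, 8 had a testable NMD sum and 5 rose in the libraries labelled Upf2 cKO (Clk1, Clk2, Clk3, Clk4 and Tnpo3, median 2.11, beside the same 30%), against 0 of 8 in Hbs1l-/- and 0 of 7 in Pelo-/- MEFs, where Prpf4b was lower. Among 1171 other NMD sums with a mean of at least 1 TPM, those most like the mean profile of the 9 genes over the 11 RNA libraries were U2af1 (Pearson r of log2 TPM 0.994), Alkbh1 (0.992) and Snrpa1 (0.991). These r values are a description, since the 3 libraries labelled Upf2 cKO stand apart from the other 8 in each profile. U2af1, a splice site recognition factor, went from 4.35 to 7.07 TPM in controls to 74.7 to 96.9 in the libraries labelled Upf2 cKO.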

How the data were processed

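Ribosome footprints and RNA of mouse embryos, cerebella and MEFs were used as deposited. Per the labels and methods the authors trimmed footprints, removed ribosomal and other short noncoding RNA with Bowtie2 2.2.3, mapped the rest to mm10 with HISAT2 2.1.0 and counted them per gene over coding sequence with featureCounts, and the deposited values are raw counts. The authors quantified RNA from a stranded kit with kallisto 0.42.4 on Gencode M24 transcripts, which gave the deposited estimated counts and TPM per transcript.

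Estimated counts were summed per gene, or per gene and annotated transcript type, and rounded. Each mutant was compared with its own controls by edgeR 4.0.16 (R 4.3.3): TMM factors, filterByExpr, the quasi-likelihood test and Benjamini-Hochberg adjustment over all features tested, with a threshold of 0.05. Type usage was tested with diffSpliceDGE and translational efficiency as the interaction of assay and genotype. Histone genes were left out of the footprint tests, as the authors did. CPM values use TMM factors of the libraries compared, intervals are ± 2 SE, and errors are SE for fold changes and SD for shares. Alternatives were DESeq2 1.42.0, RLE factors, no filter on low counts, limma 3.58.1 on log2(TPM + 0.5), the replicate number as a block, summed control pools, protein-coding RNA only in translational efficiency, and each library left out in turn. Transcript structures and sequences came from Gencode M21 on GRCm38, in which 89 of the 89 transcripts matched by versioned ID.

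All 10 genes were named, with their most abundant transcript of each type and further NMD and retained intron transcripts that were called, and members of other lists where called. The members and lists were chosen with earlier results of these data known. Depths are total assigned counts per library, and counting error is only part of the spread. In simulated data for the comparisons of the libraries labelled Upf2 cKO, 4-fold changes were recovered for 98.5% of changed genes in footprints, 84.8% in transcript type sums and 18.2% in single transcripts. Changed features were picked above a minimum mean count, with the spread of control libraries alone, so these rates do not cover scarce transcripts. For MEF RNA a library is a dish of cells of 1 embryo, and embryo libraries are pools, so p-values measure the spread between those.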

Additional observations from a re-analysis of the deposited data

Results flagged for a closer look

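The effect of Hbs1l loss on footprints differed between MEFs and embryos for 2 of the 10 genes in an interaction test that was added after the values were seen. The log2 fold change in MEFs minus that in embryos was 0.67 ± 0.15 (SE, edgeR adjusted p = 0.0153) for Srsf7 and 0.57 ± 0.15 (SE, edgeR adjusted p = 0.0343) for Srsf1. Srsf7 was called under 12 of 14 alternatives, with values from 0.59 to 0.76, and Srsf1 under 3 of 14, with values from 0.49 to 0.68. MEFs and embryos also differ in strain, Cre, Tamoxifen and batch, which cannot be told apart from tissue here.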

How the results depend on the processing

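Of 4741 named values under an alternative, 4422 stayed on their side of the threshold, 234 lost and 85 gained a call. No called value changed sign (0), while 237 of 3422 values of results that were not called did. With the replicate number as a block, although the numbers did not pair the libraries (correlations -0.22 to 0.33), 3 genes in place of 5 were called in RNA of Hbs1l-/- MEFs and 3 in place of 5 in Pelo-/- MEFs, 0 in place of 1 NMD or retained intron sum in Pelo-/- MEFs and 0 in place of 1 between Pelo-/- and Hbs1l-/- MEFs, 5 in place of 9 such sums and 4 in place of 7 such transcripts in the libraries labelled Upf2 cKO, and 2 genes in place of 1 in their translational efficiency. Of called values in all comparisons the block lost 39. They include the protein-coding sums of Srsf7 and Srsf4 in Hbs1l-/- MEFs (adjusted p 0.0548 and 0.1), of Tra2b and Srsf10 in Pelo-/- MEFs (0.0611 and 0.0669) and of Srsf5 in the libraries labelled Upf2 cKO (0.0536), the NMD sums of Srsf1 and Srsf6 there (0.0909 and 0.0736), the retained intron sums of Srsf6 and Srsf5 there (0.082 and 0.0582), the NMD usage of Srsf1 there (0.11), the transcripts Tra2b-201, Tra2b-206, Srsf2-204, Srsf4-203, Srsf5-206 and Srsf10-207 there (0.0762 to 0.114), the Srsf4 NMD sum in Pelo-/- MEFs (0.187), total RNA of Srsf6 and Srsf2 in Hbs1l-/- MEFs (0.0564 and 0.0705) and of Srsf5 and Srsf7 in Pelo-/- MEFs (0.11 and 0.162), the difference of Pelo-/- from Hbs1l-/- MEFs in Srsf6 NMD (0.103), Srsf4 translational efficiency in Pelo-/- MEFs (0.0927), and Srsf3 footprints in Hbs1l-/- MEFs (0.0521) and MEFs labelled Upf2 cKO (0.0559). With DESeq2 the calls were 1 in place of 0 sums in Hbs1l-/-, 3 in place of 1 in Pelo-/-, 11 in place of 7 transcripts in the libraries labelled Upf2 cKO, and for translational efficiency 1 in place of 0 in Hbs1l-/- and 3 in place of 1 in MEFs labelled Upf2 cKO. RLE factors gave 0 in place of 1 sum between Pelo-/- and Hbs1l-/- MEFs and 3 in place of 1 gene in translational efficiency of MEFs labelled Upf2 cKO, and protein-coding RNA alone gave 4 there. With no filter on low counts 2 sums were called in Pelo-/- MEFs, 2 between Pelo-/- and Hbs1l-/- MEFs, and 0 genes in translational efficiency of MEFs labelled Upf2 cKO, and limma called 0 sums in Pelo-/- MEFs. The cause was not tested for any of these.

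With single libraries left out, the NMD and retained intron sums called ranged from 5 to 8 in the libraries labelled Upf2 cKO (9 with all), with 5 without library 1 or library 2 so labelled, from 0 to 1 in Pelo-/- MEFs, from 0 to 2 between Pelo-/- and Hbs1l-/- MEFs, from 6 to 9 between Pelo-/- MEFs and libraries labelled Upf2 cKO, and single transcripts from 5 to 7. RNA per gene gave 2 to 4 genes in Hbs1l-/-, 3 to 5 in Pelo-/- and 1 to 4 in libraries labelled Upf2 cKO. Footprints gave 3 to 6 in Hbs1l-/- MEFs, 5 to 8 in MEFs labelled Upf2 cKO and 0 to 1 in embryos. Translational efficiency gave 5 to 8 in Pelo-/- and 0 to 3 in MEFs labelled Upf2 cKO, and the difference of the Hbs1l effect between MEFs and embryos 0 to 4. Of simulated 1.5-fold changes 2.99% were recovered in type sums and 76.1% in footprints.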
